A study of Mus musculus with 13 samples.

Results

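Phase II conjugation enzymes couple drugs, steroids, bile acids and reactive metabolites to a polar group. The 47 genes described here were taken by symbol alone from the 22180 genes with a probe set that names exactly 1 gene, and comprise 18 glutathione transferases, 10 UDP-glucuronosyltransferases and 19 cytosolic sulfotransferases. Their RNA was measured in liver of male C57Bl/6J mice on 13 Affymetrix arrays, given here as log2 levels of 1 probe set per gene. All groups began a diet with 60% of fat at an age of 6 weeks and were made obese on it over 4 weeks. Treatment then lasted 4 weeks. The CANA group (4 arrays) had canagliflozin at 25 to 30 mg/kg with the diet, the CR group (5 arrays) had its calories cut by 15 to 30% to hold body weight to that of the CANA mice, and the HFD group (4 arrays) continued the diet. Canagliflozin inhibits the glucose cotransporter SGLT2 of the kidney tubule, and the CR group serves as a weight-matched control without the drug; no body weights were examined here.

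Glutathione transferases add the tripeptide glutathione to electrophiles such as epoxides and lipid peroxidation products. UDP-glucuronosyltransferases of the endoplasmic reticulum add glucuronic acid from UDP-glucuronate to bilirubin, steroids, bile acids and many drugs, canagliflozin itself being cleared in humans mainly as glucuronides. Sulfotransferases add sulfate from the donor PAPS to phenols, catecholamines, thyroid hormone, steroids and bile acids. In liver, several genes of all 3 families are known targets of the nuclear receptors CAR and PXR, which sense drugs and steroids, and of NRF2, which responds to oxidants and electrophiles, and several differ between the sexes in mice.

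Of the 47 genes, 30 had a mean of at least 3.95, the lower limit of the tested range, and 17 lay below it as dim. The glutathione family had 16 tested genes of 18, without Gsto2 and Gstt4, and the glucuronide family had 8 of 10, without Ugt2b37 and Ugt2b38. The sulfate family had only 6 of 19. Sult1c1, Sult1e1, Sult2a1 to Sult2a7, Sult2b1, Sult3a1, Sult3a2 and Sult4a1 were dim, among them the estrogen sulfotransferase Sult1e1 and the female-predominant hydroxysteroid sulfotransferases of the Sult2a cluster. A gap separated the classes: the brightest dim gene, Sult2a5, had a mean of 3.87, and the dimmest tested gene, Gstm6, a mean of 5.01. The limit is on the mean over all arrays, which a single high group could raise. No group alone brought a conjugation gene in, since the lowest group mean of a tested one was 4.92 (Gstm6 in CANA livers). Probe sets differ in their response, so levels of different genes are not ranked here, and near-identical members of a cluster can share probe signal, which makes single genes of the Gstm, Gstp, Ugt2b and Sult2a clusters uncertain.

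**Figure D1:**
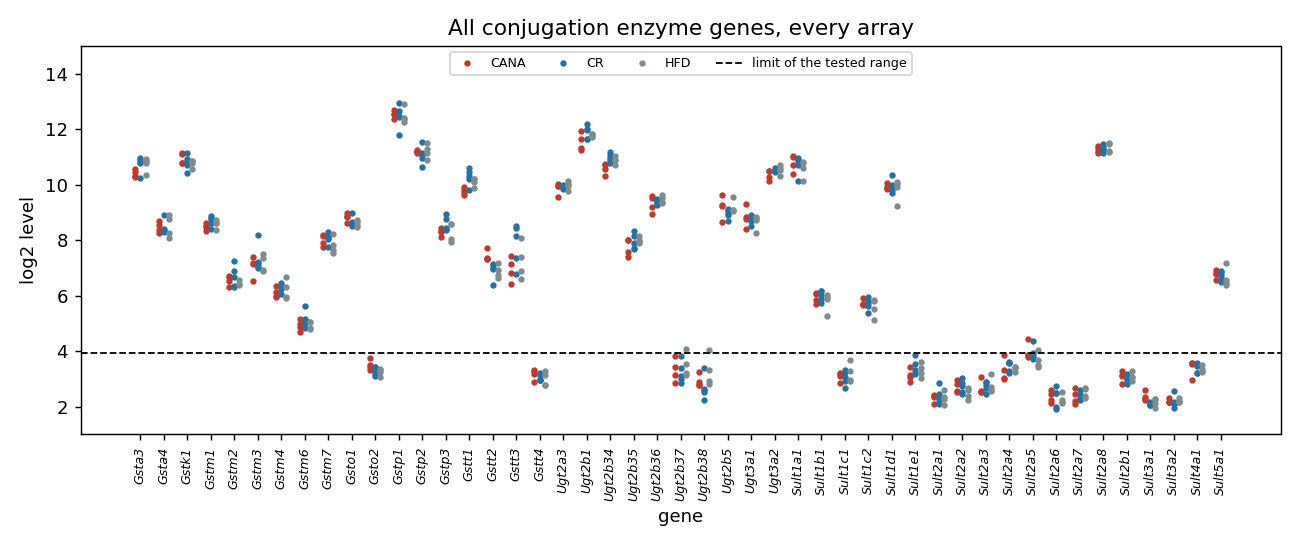
Log2 level (y axis) of each of the 47 conjugation enzyme genes (x axis, glutathione, glucuronide and sulfate families from the left), with 1 point per array in CANA, CR and HFD livers and a dashed line at 3.95, the limit of the tested range. The 3 groups overlap for nearly every gene, and 13 of the 19 sulfotransferases lie below the line.

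The arrays were alike in scale, with medians of 4.07 to 4.13, and any pair correlated at 0.986 to 0.992 across the 22180 genes. Labels give each array a serial number, 7 arrays being numbered 1 to 8 and 6 numbered 9 to 14, and every group had arrays in both sets. The labelled tissue had its markers: 9 of 10 listed hepatocyte genes were tested, and their mean deviation from the gene means was -0.02 to 0.07 in CANA, -0.02 to 0.08 in CR and -0.04 to -0.0045 in HFD livers. CR arrays 1 and 5 were the lowest in male-biased liver genes. The list of 14 tested male-biased genes deviated by -0.36 and -0.45 on them, against -0.23 to 0.28 on the other 11 arrays. The female-biased list spread widely in all groups, from -1.02 on CR array 3 and -0.996 on HFD array 1 to 0.82 on CANA array 3 and 1.01 on CR array 5. The Kupffer cell list of 8 genes deviated by -0.73 on CR array 5 and -0.56 on HFD array 3, and by up to 0.39 on HFD array 2. What these deviations contribute to the results below was not tested. Differences of the 30 tested genes described below that are 0.10 or more in size and moved by over 1.5 times without CR arrays 1 and 5 are given with both values. Whether arrays came from separate animals is not stated by the labels, and p-values therefore cover the spread between samples only. In bulk liver fewer cells of a type cannot be told apart from less RNA per cell.

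No conjugation enzyme gene was called in any of the 3 comparisons. In CANA against HFD livers limma called 0 of the 30 genes at an adjusted p under 0.05, where it called 22 of 13308 genes, or 0.165%, in either direction (0.128% higher and 0.0376% lower). The same count was 0 in CR against HFD livers, where it called 0 genes of all (0.0%), and 0 in CANA against CR livers, where it called 20 genes (0.15%, with 0.0977% higher and 0.0526% lower). With so few genes called in all, a count of 0 among 30 is close to this background. The smallest limma adjusted p of a conjugation gene was 0.223 in CANA against HFD (Gstt2), 0.999 in CR against HFD and 0.257 in CANA against CR (Gstt1). At an unadjusted limma p under 0.05, CANA against HFD had 1 higher gene (Gstt2) and 2 lower (Ugt2b34 and Gstt1), where 3.63 and 5.19% of all genes passed (8.82% in either direction). CR against HFD had 0, where 1.73% of all genes were higher and 2.01% lower (3.74% in all). Without CR arrays 1 and 5 it had 1 (Gstm7, higher), where 591 of 13308 genes passed in either direction. CANA against CR had 1 higher gene (Gstt2) and 5 lower (Gstt1, Gstt3, Gsta3, Ugt2b34 and Ugt2b1), where 4.11 and 4.32% of all genes passed (8.43% in either direction). Without CR arrays 1 and 5 that count was 3 higher (Gstt2, Gsto1 and Gstk1) and 3 lower (Gstt1, Ugt2b34 and Ugt2b1), where 1131 of 13308 genes passed. With 1 array left out these counts moved. CANA against HFD had 3 higher and 4 lower genes without HFD array 1, 2 and 3 without CANA array 4, 1 and 0 without CANA array 1, and 2 and 0 without HFD array 4. Of all 13308 genes, 1093, 1078, 1304 and 1062 passed in these settings, in that order. CR against HFD had 4 (Gstm2, Gstp3, Gstt1 and Gstt3) without CR array 3, 3 without HFD array 4 and 1 without any 1 of CR arrays 2, 4 and 5 and HFD arrays 1 and 3. There 529 of 13308 genes passed without CR array 3, 666 without HFD array 4, and 396 to 595 in the settings with 1. CANA against CR had 3 to 6 lower genes, 3 of them without any 1 of CANA arrays 1 and 2 and CR arrays 1, 4 and 5. In that comparison 956 to 1182 of 13308 genes passed in either direction with 1 array left out. When the 17 dim genes were put into the same fit, 0 of them were called in any comparison, with 1 unadjusted p under 0.05 in each and smallest adjusted p values of 0.628, 0.999 and 0.570 in CANA against HFD, CR against HFD and CANA against CR. With dim genes kept, 1651, 919 and 1558 of 22180 genes had an unadjusted limma p under 0.05, in the same order.

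The limits on the size of any change were set by 4 or 5 arrays a group. The differences of the 30 genes on the log2 scale ran from -0.32 to 0.57 in CANA minus HFD, from -0.23 to 0.61 in CR minus HFD and from -0.89 to 0.52 in CANA minus CR. Their 95% intervals reached from -1.06 to 0.92, from -0.58 to 1.35 and from -1.63 to 0.84 in the same order, and the widest were those of Gstt3.

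**Figure D2:**
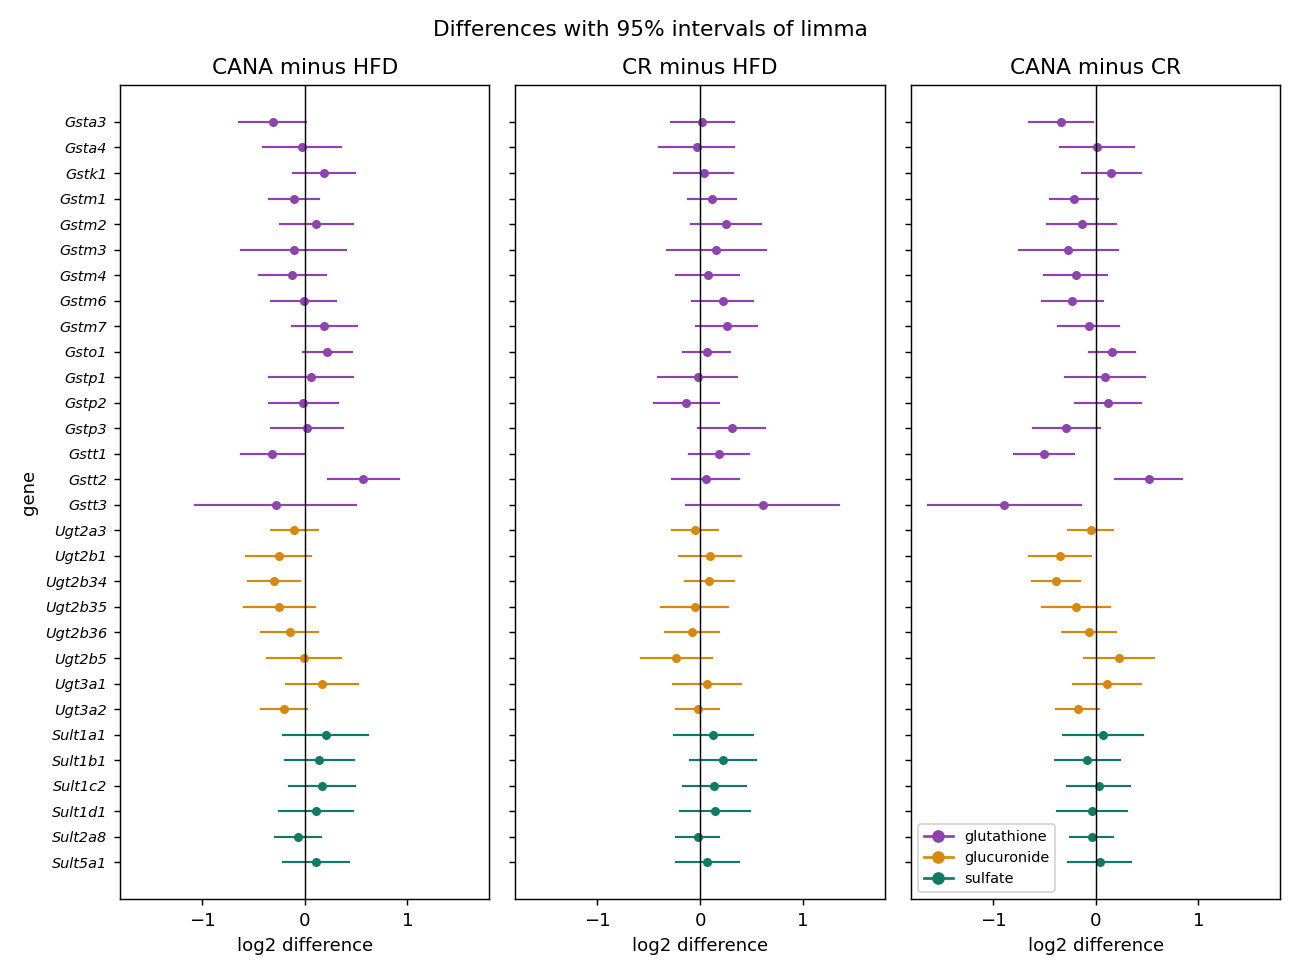
Log2 difference (x axis) of each of the 30 tested genes (y axis) in CANA minus HFD, CR minus HFD and CANA minus CR, with 95% intervals of limma as lines and families by colour. Every interval in CR minus HFD crosses 0, and Gstt2 is the gene whose interval lies farthest above 0 in both CANA comparisons.

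The median difference of a family was at most 0.17 in size in any comparison. Of all genes, 46.1% were above 0 in CANA minus HFD and 46.4% in CR minus HFD. Seen from HFD livers, 7 glutathione transferases had a higher mean in CANA livers and 9 a lower one, with a median difference of -0.01, the same as the -0.01 over all genes. Of the glucuronosyltransferases 1 was higher (Ugt3a1) and 7 were lower in CANA livers, with a median of -0.17, and of the sulfotransferases 5 were higher and 1 was lower (Sult2a8), with a median of 0.13. The sulfate median rested on HFD array 1, where the median deviation of the family's tested genes was -0.33, and was 0.04 without that array. The glutathione median changed sign with 1 array left out, from -0.05 without HFD array 2 to 0.03 without HFD array 3. In CR minus HFD, 13 glutathione transferases were above 0 and 3 below, with a median of 0.09, which came to 0.02 without CR arrays 1 and 5. The split of the signs also rested on those arrays. Without them Gsta3, Gstk1, Gstm3, Gstm4, Gsto1 and Gstt2 fell below 0, while Gstp1 and Gstp2 came above it. The medians in CR minus HFD were -0.04 for the glucuronide and 0.13 for the sulfate family, and -0.01 over all genes. The sulfate median came to 0.02 without HFD array 1 and to 0.08 without CR arrays 1 and 5. In CANA minus CR the medians were -0.17, -0.12 and -0.0030 for the glutathione, glucuronide and sulfate families, and -0.0037 over all genes. The first of these came to -0.09 without CR arrays 1 and 5. The glucuronide median in CANA livers was carried unevenly by its arrays. The median deviation of the family's tested genes was -0.33, 0.11, -0.34 and 0.07 on CANA arrays 1 to 4, against -0.07 to 0.17 on the HFD arrays. These counts and medians describe genes that share arrays and controls and carry no test.

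Among the glutathione transferases, the theta class held the largest differences and went both ways. Theta enzymes act on small halogenated compounds and epoxides, and Gstt3, Gstt1, Gstt4 and Gstt2 are direct neighbours in that order on mouse chromosome 10 in the RefSeq annotation, followed by Mif. Gstt2 read 7.37, 7.73, 7.32 and 7.31 in CANA livers, 7.00, 7.13, 6.97, 6.38 and 7.10 in CR livers, and 6.62, 6.74, 6.91 and 7.17 in HFD livers. Every CANA array lay above every CR and every HFD array. Such separation upward was found for 1 of 30 genes in CANA against HFD and for the same 1 in CANA against CR, where 2.13 and 1.42% of all genes showed it. The means were 7.43 ± 0.20 in CANA, 6.91 ± 0.30 in CR and 6.86 ± 0.24 in HFD livers (SD, n = 4, 5 and 4). CANA minus HFD was 0.57 ± 0.16 (SE), or 1.49-fold with a 95% interval of 0.23 to 0.92 on the log2 scale, and did not pass after adjustment (limma adjusted p = 0.223). CANA minus CR was 0.52 (0.19 to 0.84, limma adjusted p = 0.296), and CR minus HFD was 0.06 (-0.27 to 0.38, adjusted p = 0.999). The CANA minus HFD difference was 0.87 among arrays numbered 1 to 8 and 0.28 among those numbered 9 to 14. A test of that contrast between the sets had a limma adjusted p of 0.912. CR minus HFD was 0.35 in the first set and -0.30 in the second, and the test between them had an unadjusted p of 0.0353 and an adjusted p of 0.992.

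Gstt1, the theta enzyme that acts on dichloromethane, ran the other way. It read 9.73, 9.61, 9.85 and 9.93 in CANA livers, 10.60, 10.21, 9.81, 10.31 and 10.47 in CR livers, and 9.88, 10.19, 10.08 and 10.22 in HFD livers. CR array 3 and HFD array 1 lay within the CANA range, and the other CR and HFD arrays lay above it. CANA minus CR was -0.50 ± 0.14 (SE), with an interval of -0.79 to -0.21 (limma adjusted p = 0.257), and it was -0.33 without CR arrays 1 and 5. CANA minus HFD was -0.32 (-0.62 to -0.01, adjusted p = 0.545), and CR minus HFD was 0.19 (-0.10 to 0.48, adjusted p = 0.999), or 0.016 without CR arrays 1 and 5.

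Gstt3 varied more between arrays than any other tested conjugation gene, with an SD of 0.71 over the 13 arrays. Its levels were 6.82, 6.41, 7.44 and 7.15 in CANA livers, 8.51, 7.35, 6.78, 8.14 and 8.43 in CR livers, and 6.59, 6.87, 7.39 and 8.08 in HFD livers. The groups overlapped, and CR arrays 1 and 5 were the highest of all. CR minus HFD was 0.61 (-0.13 to 1.35) and came to 0.19 without those arrays and to 0.39 without HFD array 1. CANA minus CR was -0.89 (-1.63 to -0.15, limma adjusted p = 0.519) and came to -0.47 without them.

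Gstt3 and Gstt1 varied together over the arrays, with a Pearson r of 0.876 (permutation p = 7e-05, adjusted over 3 theta pairs 0.00021) and a Spearman rho of 0.857 (permutation p = 0.00038, adjusted 0.00114) over 13 arrays. Without CR arrays 1 and 5, the farthest from the median, r was 0.766, and it was 0.905 and 0.918 among arrays numbered 1 to 8 and 9 to 14. With each group centred on its mean it was 0.867. Gstt2, at the other end of the cluster, had an r of -0.479 with Gstt1 (permutation p = 0.0985, adjusted 0.148; rho -0.462, adjusted 0.176) and of -0.26 with Gstt3 (permutation p = 0.395, adjusted 0.395; rho -0.176, adjusted 0.569). The first of these was 0.01 with groups centred.

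The promoters of the pair, and of Gstm1, whose levels followed the same list of genes as described below, are shown because Gstt1 and Gstt3 varied together over the arrays and Gstm1 varied with that list as they did. Each is RefSeq sequence of build GRCm38.p6, from 250 bases before to 50 bases after the start of a transcript. All 3 lie on the minus strand and are written 5′ to 3′ along it. Gstt1 lies at chr10:75797682-75797981, Gstt3 at chr10:75781373-75781672 (the first of 2 starts) and Gstm1 at chr3:108017769-108018068 (the second of 2 starts). Capitals mark a match to any of 6 motifs searched on both strands.
Gstt1: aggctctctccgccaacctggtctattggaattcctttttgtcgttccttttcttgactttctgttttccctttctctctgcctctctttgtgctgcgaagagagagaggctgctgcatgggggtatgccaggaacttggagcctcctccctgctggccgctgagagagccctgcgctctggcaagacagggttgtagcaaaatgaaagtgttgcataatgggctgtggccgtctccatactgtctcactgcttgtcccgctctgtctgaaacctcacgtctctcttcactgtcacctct
Gstt3: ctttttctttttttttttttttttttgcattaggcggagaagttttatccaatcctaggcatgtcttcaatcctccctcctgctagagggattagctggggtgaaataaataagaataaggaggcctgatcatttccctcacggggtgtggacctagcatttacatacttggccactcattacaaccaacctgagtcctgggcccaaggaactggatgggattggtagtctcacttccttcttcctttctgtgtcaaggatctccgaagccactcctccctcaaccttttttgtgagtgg
Gstm1: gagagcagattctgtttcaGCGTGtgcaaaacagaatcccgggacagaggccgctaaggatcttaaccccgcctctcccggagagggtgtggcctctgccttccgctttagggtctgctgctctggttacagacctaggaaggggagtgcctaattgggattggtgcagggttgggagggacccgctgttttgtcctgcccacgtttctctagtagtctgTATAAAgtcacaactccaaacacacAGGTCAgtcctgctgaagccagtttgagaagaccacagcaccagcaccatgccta
In the Gstm1 window the capitals are the xenobiotic response element core GCGTG from base -231, the TATA box TATAAA from -30 and the nuclear receptor half-site AGGTCA from -5, none overlapping another. The Gstt1 and Gstt3 windows hold none of the 6 motifs, which were these 3, the antioxidant response element TGACNNNGC, the CAR and PXR half-site AGTTCA and the HNF1 half-site GTTAAT. RefSeq promoters were matched for 40 of the 47 genes, 50 windows in all. Among them TGACNNNGC was in 4.0% and GCGTG in 16.0%, against 12.4 and 32.4% of all 32851 promoters. AGGTCA was in 20.0%, AGTTCA in 9 of the 50 windows and TATAAA in 20.0%, against 16.3, 14.0 and 13.6%. GTTAAT was in 20.0%, 10 windows of 10 genes among which are Gsta3, Sult1a1, Sult1d1, Ugt2a3 and Ugt3a1, against 7.1% of all promoters. The Sult2a genes are close paralogs, so their windows are not independent, and a match describes letters only.

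The alpha class, which acts on lipid peroxidation products and in mice on the epoxide of aflatoxin, was represented by Gsta3 and Gsta4 only. The probe sets of Gsta1 and Gsta2 carry several symbols and stood outside the comparisons. Gsta3 read 10.29, 10.30, 10.44 and 10.57 in CANA livers, 10.95, 10.76, 10.24, 10.90 and 10.82 in CR livers, and 10.33, 10.92, 10.77 and 10.83 in HFD livers. All CANA arrays lay below all CR and HFD arrays but 1 of each, CR array 3 and HFD array 1. CANA minus HFD was -0.31 (-0.64 to 0.02, limma adjusted p = 0.596), CR minus HFD 0.02 and CANA minus CR -0.34 (adjusted p = 0.557). Its promoter window holds the antioxidant response element letters TGACATTGC from -121 and the HNF1 half-site from -149. Gsta4, which detoxifies the aldehyde 4-hydroxynonenal, averaged 8.46 ± 0.18, 8.45 ± 0.26 and 8.49 ± 0.40 in CANA, CR and HFD livers (SD), and none of its 3 differences exceeded 0.04 in size over all arrays. Its CR minus HFD difference was -0.31 and 0.20 within the sets of serial numbers 1 to 8 and 9 to 14.

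Of the 6 mu class genes, which lie together on chromosome 3, none passed. Gstm1 averaged 8.48 ± 0.12 in CANA, 8.69 ± 0.19 in CR and 8.58 ± 0.16 in HFD livers (SD), with CANA minus CR at -0.21 (-0.45 to 0.02, limma adjusted p = 0.623), or -0.12 without CR arrays 1 and 5. Gstm3 was even in most arrays and high in 1: it read 6.53, 7.38, 7.17 and 7.14 in CANA livers, 7.04, 6.99, 7.16, 7.23 and 8.19 in CR livers, and 6.91, 6.90, 7.36 and 7.49 in HFD livers. CR array 5 was the highest by a wide gap. That array also held the lowest male-biased and the highest female-biased list value. The arrays next to it on those lists, CR array 1 and CANA array 3, read 7.04 and 7.17 for Gstm3. The relations of Gstm3 with the male-biased and female-biased lists did not pass (adjusted permutation p for r 0.271 and 0.174). Gstm7 and Gstm2 were 0.26 and 0.25 higher in CR than in HFD livers, and Gstm6 was 0.22 higher, each with an interval that held 0 and an adjusted p of 0.999. Gstm2 came to 0.11 without CR array 2, its highest, and Gstm6 to 0.07 without CR arrays 1 and 5. Gstm7 was 0.17 without HFD array 3 and 0.39 without HFD array 4.

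The pi class, known to be higher in male than in female mouse liver, showed small differences. Gstp1 read 12.70, 12.56, 12.56 and 12.38 in CANA livers, 12.43, 12.48, 12.94, 12.66 and 11.81 in CR livers, and 12.92, 12.25, 12.38 and 12.40 in HFD livers. The groups overlapped throughout, and CR array 5 held the lowest level. The male-biased list was low on that array and on CR array 1, where Gstp1 read 12.43. The r of Gstp1 with that list was 0.626 (adjusted permutation p 0.149), and 0.294 without CR arrays 1 and 5. The CANA minus HFD difference was 0.06 (-0.35 to 0.47, limma adjusted p = 0.969). Gstp3 averaged 8.30 ± 0.14 in CANA, 8.58 ± 0.26 in CR and 8.27 ± 0.34 in HFD livers (SD). Its CR minus HFD difference of 0.31 (-0.02 to 0.64) had the smallest unadjusted p of that comparison, 0.0643, and an adjusted p of 0.999 in limma. That difference was 0.60 within serial numbers 1 to 8 and 0.016 within 9 to 14 (test between the sets, unadjusted p = 0.0409 and limma adjusted p = 0.992). It was 0.13 without CR arrays 1 and 5 and 0.19 without HFD array 1. The CANA minus HFD difference of Gstp3 was 0.38 within serial numbers 1 to 8 and -0.34 within 9 to 14. The test between the sets had an unadjusted p of 0.0186 and a limma adjusted p of 0.912. Of the remaining classes, Gsto1, an omega enzyme that reduces dehydroascorbate, was 0.22 (-0.02 to 0.46) higher in CANA than in HFD livers (adjusted p = 0.609), and Gstk1, the kappa enzyme of mitochondria and peroxisomes, 0.19 (-0.12 to 0.49, adjusted p = 0.784). The Gstk1 difference was 0.07 and 0.30 within the sets of serial numbers, and 0.12 without HFD array 1.

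**Figure D3:**
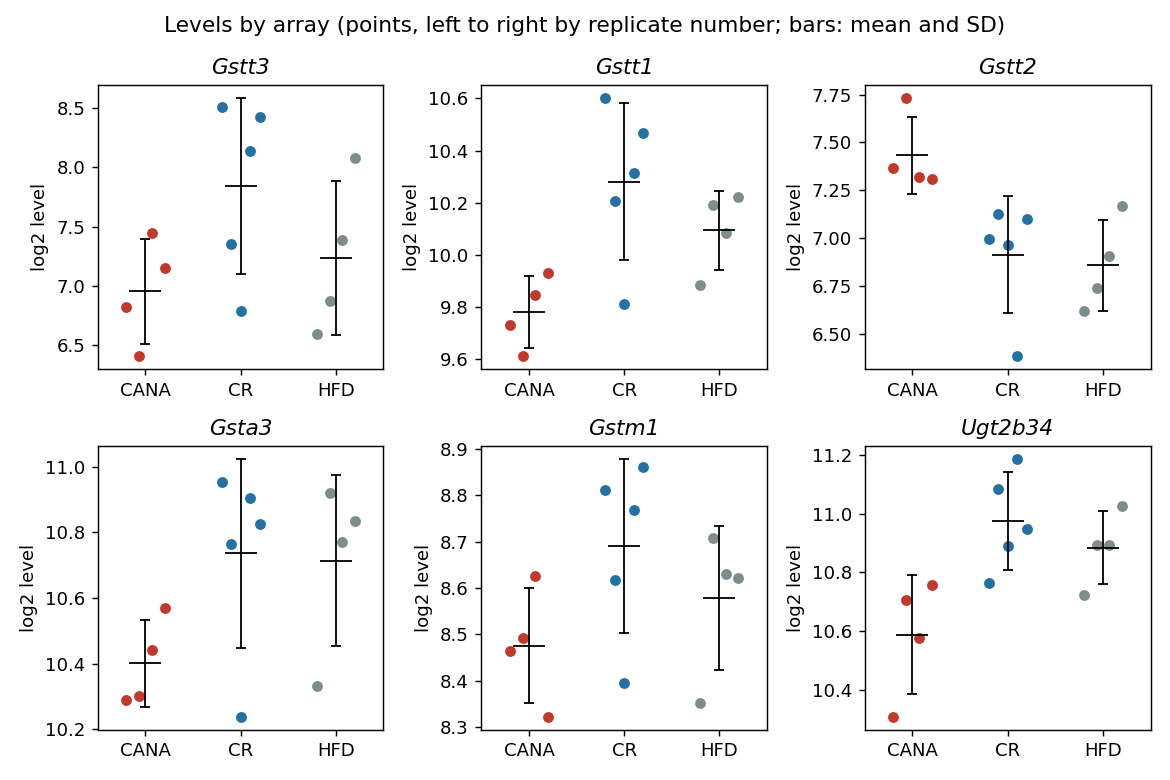
Log2 level (y axis) by group (x axis: CANA, CR, HFD) of the theta genes Gstt3, Gstt1 and Gstt2, and of Gsta3, Gstm1 and Ugt2b34, with 1 point per array ordered by replicate number and black bars for mean and SD. Gstt2 lies above 7.30 on all CANA arrays and at most at 7.17 on all others, while Gstt3 spreads from 6.41 to 8.51.

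Among the glucuronosyltransferases, Ugt2b34 had the smallest p in both comparisons of CANA livers. The Ugt2b enzymes act on steroids, bile acids and drugs, and their genes lie on chromosome 5. Ugt2b34 read 10.31, 10.71, 10.58 and 10.76 in CANA livers, 10.76, 11.08, 10.89, 11.19 and 10.95 in CR livers, and 10.72, 10.89, 10.89 and 11.03 in HFD livers. No CANA array reached the CR range, though CANA array 4 and CR array 1 both round to 10.76, and HFD array 1 lay within the CANA range. It was the 1 conjugation gene of 30 so separated downward, where 1.51% of all genes were in CANA against CR, and there were 0 in CANA against HFD, where 2.77% were. In CR against HFD 0 of 30 were separated in either direction, where 0.451% of all genes were upward and 0.721% downward. CANA minus CR was -0.39 ± 0.11 (SE), with an interval of -0.62 to -0.15 (limma adjusted p = 0.286), and -0.40 within each set of serial numbers. CANA minus HFD was -0.30 (-0.55 to -0.05, limma adjusted p = 0.462), and CR minus HFD 0.09.

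Ugt2b1, another steroid and drug enzyme of the cluster, read 11.26, 11.94, 11.31 and 11.63 in CANA livers, 11.63, 11.96, 12.01, 12.18 and 11.64 in CR livers, and 11.83, 11.75, 11.84 and 11.73 in HFD livers. CANA arrays 1 and 3 were the lowest of all, CANA array 2 lay among the CR arrays, and the HFD arrays were close together. CANA minus CR was -0.35 (-0.65 to -0.05, limma adjusted p = 0.536) and CANA minus HFD -0.25 (-0.57 to 0.06, adjusted p = 0.68). The first was -0.52 without CR arrays 1 and 5, and the second -0.16 without CANA array 1 and -0.39 without CANA array 2. Ugt2b5 was the glucuronosyltransferase with the largest difference in CR minus HFD, -0.23 (-0.58 to 0.11), which came to -0.13 without CR arrays 1 and 5 and to -0.12 without HFD array 2. Its levels were 9.22, 9.61, 8.65 and 9.28 in CANA livers, 8.90, 9.14, 9.08, 8.99 and 8.70 in CR livers, and 9.09, 9.54, 9.08 and 9.06 in HFD livers. CANA arrays held both the highest and the lowest of these values.

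The Ugt3a genes encode enzymes that, in humans, use UDP-sugars other than UDP-glucuronate. Ugt3a2 averaged 10.34 ± 0.17 in CANA, 10.51 ± 0.06 in CR and 10.54 ± 0.16 in HFD livers (SD), with CANA minus HFD at -0.20 (-0.42 to 0.02, limma adjusted p = 0.623) and CANA minus CR at -0.17 (-0.38 to 0.03, adjusted p = 0.67). They were -0.13 and -0.10 without CANA array 1. Ugt3a1, the 1 gene of the family with a higher mean in CANA than in HFD livers, differed by 0.17 (-0.18 to 0.52), and by 0.014 without CANA array 4. Ugt2b35, Ugt2b36 and Ugt2a3 differed by -0.25, -0.14 and -0.10 in CANA minus HFD, with limma adjusted p values of 0.733, 0.828 and 0.873. Without CANA array 3 the first pair came to -0.13 and -0.015, and without CANA array 1 Ugt2a3 came to 0.0046.

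The 6 tested sulfotransferases differed by at most 0.22 in size in any comparison. Sult1a1, the phenol sulfotransferase, read 10.39, 11.03, 11.00 and 10.72 in CANA livers, 10.70, 10.87, 10.13, 10.91 and 10.95 in CR livers, and 10.13, 10.77, 10.61 and 10.81 in HFD livers. The groups overlapped widely, and CR array 3 and HFD array 1 were the lowest. CANA minus HFD was 0.20 (-0.21 to 0.61, limma adjusted p = 0.838). Sult1b1, which acts on thyroid hormone, was 0.14 (-0.19 to 0.48) higher in CANA than in HFD livers and 0.22 (-0.10 to 0.54) higher in CR than in HFD livers, where HFD array 1, at 5.25, was its lowest array. Without HFD array 1 the CANA minus HFD difference of Sult1a1 was 0.05, and those of Sult1b1 were -0.03 in CANA minus HFD and 0.05 in CR minus HFD. Without CR arrays 1 and 5 Sult1b1 was 0.11 in CR minus HFD. Sult1c2 differed by 0.17 and 0.14, and Sult1d1, which acts on catecholamines in mice, by 0.11 and 0.15 in CANA minus HFD and CR minus HFD. Without HFD array 1 those of Sult1c2 came to 0.02 and -0.01. Sult1d1 was low on 1 array, at 9.23 on HFD array 3 against 9.70 to 10.34 on the other 12. Without that array its differences were -0.08 and -0.05, and CR minus HFD was 0.0076 without CR arrays 1 and 5. The bile acid sulfotransferase Sult2a8 was the steadiest conjugation gene, with an SD of 0.13 over 13 arrays: its means were 11.27 ± 0.12 in CANA, 11.31 ± 0.12 in CR and 11.33 ± 0.16 in HFD livers (SD). Its CANA minus HFD interval of -0.28 to 0.16 was the narrowest of the tested sulfotransferases. The estrogen sulfotransferase Sult1e1 stayed dim, at 2.88 to 3.41 in CANA, 3.17 to 3.88 in CR and 3.02 to 3.61 in HFD livers.

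**Figure D4:**
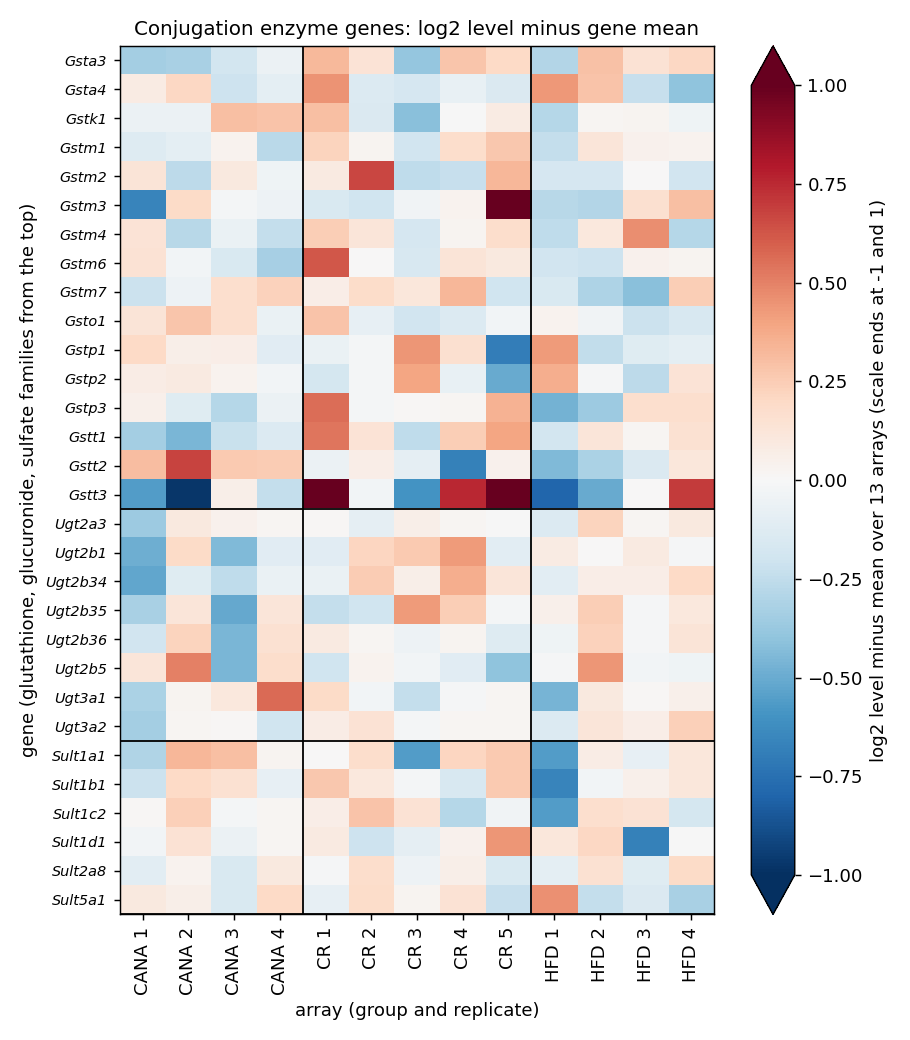
Log2 level minus the gene's mean over 13 arrays (colour, ends of the scale at -1 and 1) for the 30 tested genes (y axis, families from the top) on the CANA, CR and HFD arrays (x axis). Gstt3 and Gstt1 are high together on CR arrays 1 and 5, Gstm3 is high on CR array 5, and the sulfotransferases are mostly pale.

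How the conjugation genes varied with the receptors' target genes was described over all 13 arrays. The level of each of the 30 genes was set against the mean deviation of 4 lists (CAR and PXR targets, NRF2 targets, male-biased and female-biased liver genes), 120 relations in all. By Pearson's r 3 of them had an adjusted permutation p under 0.05, all with the list of 11 tested CAR and PXR targets, which holds cytochromes such as Cyp2b10, Cyp2c29 and Cyp3a11 and no conjugation gene. Gstt3 had an r of 0.865 (permutation p = 9e-05, adjusted 0.0108) and a rho of 0.896 (adjusted permutation p 0.0144). Gstm1 had an r of 0.788 (permutation p = 0.00079, adjusted 0.0412) and a rho of 0.868 (adjusted 0.0192). Gstt1 had an r of 0.782 (permutation p = 0.00103, adjusted 0.0412), but its rho of 0.714 did not pass (adjusted 0.123). Without CR arrays 1 and 5, which had the highest list values, r was 0.759 for Gstt3, 0.669 for Gstm1 and 0.493 for Gstt1, so the relation of Gstt1 rests largely on them. Among the arrays numbered 1 to 8 and 9 to 14, r was 0.946 and 0.748 for Gstt3, 0.821 and 0.733 for Gstm1, and 0.841 and 0.594 for Gstt1. With each group centred on its mean, r of Gstt3 was 0.845 with this list, -0.825 with the male-biased and 0.824 with the female-biased list. In the same order r was 0.804, -0.805 and 0.738 for Gstt1 and 0.744, -0.695 and 0.802 for Gstm1. The 3 genes thus varied with the sex-biased lists as well within groups. Over all arrays Gstt3 had an r of -0.750 with the male-biased list (adjusted permutation p 0.0583). None of the 90 relations with the other lists passed by r. By rho 1 did: Gstk1 had a rho of -0.835 with the male-biased list (adjusted permutation p 0.0252), beside an r of -0.727 (adjusted 0.0617) that was -0.836 without CR array 1 and CR array 5 and -0.873 and -0.312 within the sets of serial numbers 1 to 8 and 9 to 14. The CAR and PXR list itself deviated by -0.18, -0.20, 0.11 and -0.24 in CANA, 0.64, -0.11, -0.25, -0.06 and 0.43 in CR and -0.27, -0.09, -0.01 and 0.24 in HFD livers, and 0 of its 11 genes were called in any comparison. Cyp2b9 and Cyp2b13 are also in the female-biased list, which was high on CR array 5. The lowest group mean of a gene in the CAR and PXR list was 3.85 in CANA, 4.43 in CR and 3.89 in HFD livers. At least 1 gene of that list thus lay below the limit of the tested range in CANA livers, and at least 1 in HFD livers. In CR livers every gene of that list lay above the limit. A gene below it in both CANA and HFD livers passed the limit only through CR livers, whose arrays 1 and 5 had the highest list values. The female-biased list had the same lowest means in CANA and HFD livers. The permutation p-values of the 3 relations do not allow for such a passage, so these relations are descriptive. What such genes contribute to the list values on CR arrays 1 and 5 and to the 3 relations was not tested.

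**Figure D5:**
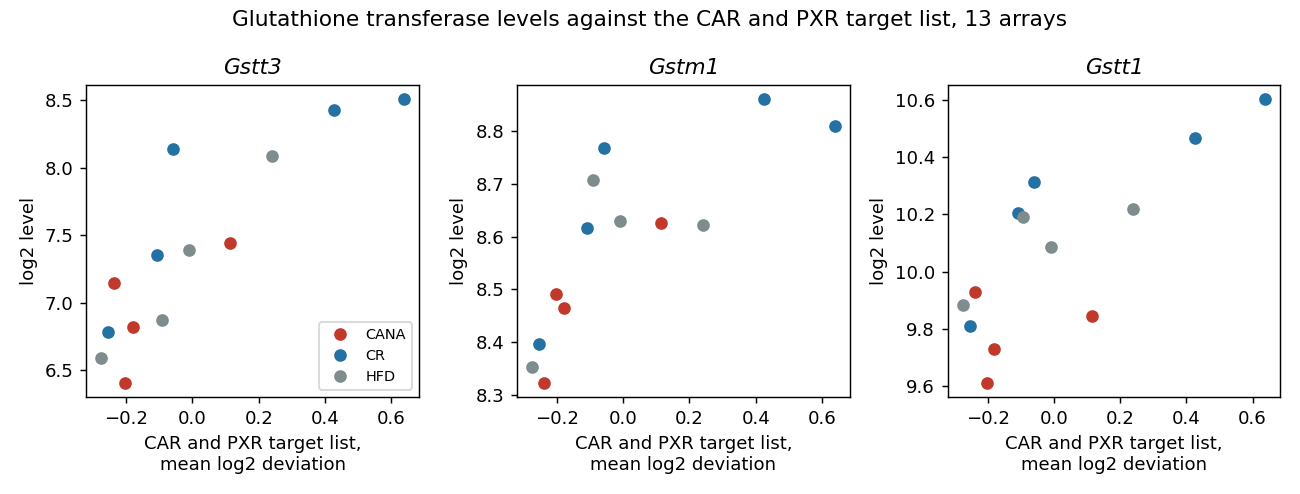
Log2 level (y axis) of Gstt3, Gstm1 and Gstt1 against the mean log2 deviation of the 11 CAR and PXR target genes (x axis) on 13 arrays, coloured by CANA, CR and HFD. Levels climb with the list in each panel (r of 0.865, 0.788 and 0.782), and CR arrays 1 and 5 form the upper right end.

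With the serial number as a covariate, 0 of the 30 conjugation genes followed it at a limma adjusted p under 0.05, where 50 of 13308 genes did (0.376%). At an unadjusted p under 0.05 there were 6 (Gsta4, Gstm3, Ugt2b34, Gstt3, Ugt3a1 and Gsto1), where 11.9% of all genes passed. The steepest by p were Gsta4, at -0.05 per number (limma adjusted p = 0.0893), and Gstm3, at 0.06 per number (adjusted p = 0.113). None of the 30 genes, and none of all genes, was called for a difference between the sets of serial numbers in any of the 3 treatment contrasts.

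Among other genes of conjugation, 1 was called. Of 91 listed genes for other glutathione transferases, glutathione, UDP-glucuronate and PAPS supply, other conjugation reactions, export of conjugates and regulators, 74 were tested. In CANA minus HFD 27 were above 0 and 47 below, where 46.1% of all genes were above 0. The medians were -0.05 in CANA minus HFD, -0.02 in CR minus HFD and -0.03 in CANA minus CR. Nnmt, which methylates nicotinamide, was the 1 gene called, higher in CANA livers in both comparisons, where 0.128 and 0.0977% of all genes were called higher. It read 7.74, 8.39, 8.09 and 8.10 in CANA livers, 7.10, 7.16, 7.13, 7.56 and 7.61 in CR livers, and 7.40, 7.14, 7.15 and 7.30 in HFD livers. Every CANA array lay above every other array. CANA minus HFD was 0.83 ± 0.15 (SE, limma adjusted p = 0.0383) and CANA minus CR 0.77 ± 0.14 (SE, adjusted p = 0.0367), while CR minus HFD was not called. Both calls were near the threshold and were lost when dim genes were kept in the fit, with adjusted p values of 0.05003 and 0.0514. In CANA against HFD the call was also lost without any 1 of CANA arrays 2, 3 and 4 or HFD arrays 1 to 4 (adjusted p of 0.0586 to 0.123), and in CANA against CR without any 1 of CANA arrays 2, 3 and 4, CR arrays 1, 2 and 3 or HFD arrays 2 and 4 (0.0508 to 0.133). Within the sets of serial numbers 1 to 8 and 9 to 14, CANA minus HFD was 0.79 and 0.87 (limma adjusted p = 0.5002 and 0.119) and CANA minus CR 0.93 and 0.51 (adjusted p = 0.276 and 0.593), and without CR arrays 1 and 5 CANA minus CR was 0.80 (adjusted p = 0.0584).

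Of the other genes of these lists none was called. Cth, the lyase that yields cysteine for glutathione, read 10.95, 11.49, 11.39 and 10.98 in CANA livers, against 10.59, 10.83, 10.79 and 10.83 in HFD livers. The CANA arrays lay above these and above the CR arrays, which averaged 10.79 ± 0.12 (SD). The CANA minus HFD difference of 0.44 had a limma adjusted p of 0.225 and the CANA minus CR difference of 0.41 one of 0.284. Slc35d2, a Golgi carrier of UDP-sugars, and Slc35b3, a carrier of PAPS, were 0.34 and 0.26 lower in CANA than in HFD livers (limma adjusted p = 0.4004 for each). The uptake carrier Slco1a4 differed most in size, by 1.04 in CANA minus HFD (adjusted p = 0.454), but its arrays spread from 6.31 to 8.63 and overlapped. Foxa2, a hepatocyte transcription factor, was 0.36 lower in CANA than in HFD livers (limma adjusted p = 0.472). In CR minus HFD the genes with the smallest p of their lists were Mgst3, a microsomal glutathione transferase (0.34), Slc25a39, the mitochondrial glutathione carrier (0.16), Hk1 (-0.32), Slc35b2, a PAPS carrier (0.23), Tpmt, which methylates thiopurines (-0.20), Slco1a4 (0.65) and Cebpa (-0.19), each with a limma adjusted p of 0.999. In CANA minus CR, Tpst2, which sulfates protein tyrosines, differed by -0.38 (limma adjusted p = 0.415), Abcc6 by -0.13 and Foxa2 by -0.36.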

How the data were processed

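Per the labels, 250 ng of total liver RNA went into biotin labelling after the WT Plus protocol. The authors computed the deposited log2 values by RMA in Affymetrix Expression Console, per the submitters' processing notes. Array build and detection calls are not given in the sources used here.

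Of 41345 probe sets, 23521 had exactly 1 symbol in the platform's annotation (23328 matched to RefSeq), 1814 several and 16010 none. The probe set with the highest mean was taken for each of 22180 genes, and the dimmest genes, those under the 40th percentile of means (3.95), were dropped, leaving 13308. The conjugation genes have 1 such probe set each. limma 3.58.1 in R 4.3.3 was fitted to all 13 arrays without covariates (10 residual and 5.71 prior degrees of freedom), with Benjamini-Hochberg adjustment over all genes, two-sided, and calls under 0.05. Correlations had 100000 permutations, two-sided, with adjustment over the relations named. The limma group fit was tested on simulated arrays with independent noise. Smaller changes were simulated too, but the check on detection was applied only to changes larger than any difference of the conjugation genes here. Detection of the smaller ones is not reported here. The correlations, serial number terms and motif search were not simulated.

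The members and lists were chosen with earlier results of these data known. Genes named with values are, in each comparison and family, the 3 with the smallest p, those whose arrays do not overlap, the 3 with the largest SD, and in each pathway list the gene with the smallest p. Others named (Gsta4, Gstm1, Gstm2, Gstm6, Gstp1, Gsto1, Gstk1, Ugt3a1, Ugt2b36, Ugt2a3 and Sult1e1) were chosen after their values were seen. The deviations of same-numbered samples correlated at -0.15 to 0.30, over 0.1 in 7 of 12 pairs; since not every pair exceeded 0.1, the numbers were not taken to pair samples. The alternatives were other filters, normalization, variance models, array weights, serial number terms and each array left out. Leaving out CR arrays 1 and 5 together was chosen after the data were seen.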

Additional observations from a re-analysis of the deposited data

Results flagged for a closer look

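Among the 17 conjugation genes named by rule, 6 of 51 groups held an array far from the others by Dixon's criterion. Chance gives about 1 in 20, but some of these genes were named for a large SD, which such an array raises, so the share is not set against it. Over all 30 tested genes it was 10 of 90 groups (11.1%), and over all genes of the lists used it was 25 of 582 (4.30%). Genes share arrays, and the cause was not tested. Gstt2 was high on CANA array 2, at 7.73 against 7.31 to 7.37 on the others of that group, and low on CR array 4, at 6.38 against 6.97 to 7.13. Gsta3 was low on CR array 3, at 10.24 against 10.76 to 10.95. Sult1c2 was high on CANA array 2, at 5.92 against 5.66 to 5.70. Ugt2b5 was high on HFD array 2, at 9.54 against 9.06 to 9.09. Gstm3 was high on CR array 5, at 8.19 against 6.99 to 7.23.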

How the results depend on the processing

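The count of 0 conjugation genes called held in all 3 comparisons under every setting tried, among them an adjusted p under 0.10, no filter, and the replicate number as a block, under which Gstt2 in CANA minus HFD was 0.57 (limma adjusted p = 0.269), the count over all genes in CANA against HFD was 29 in place of 22, that in CR against HFD 1 in place of 0, and no call of a gene named here changed. That count was 12 with no filter, 40 with the serial number as a covariate, 46 with its set as a term, and 2 and 0 within the sets, and 3 to 38 with 1 array left out. In CANA against CR it was 20, 5 and 0 within the sets, and 7 to 23 with 1 array left out. The count of pathway genes called, 1 (Nnmt) in CANA against HFD and in CANA against CR, ranged from 0 to 1 with 1 array left out and was 0 within either set and with no filter. In CANA against CR it was also 0 with only the arrays compared and without CR arrays 1 and 5. The adjusted p of Nnmt over all settings was 0.0129 to 0.5002 and 0.0146 to 0.593. With 1 array left out, the family medians given as -0.012, -0.17 and 0.13 in CANA minus HFD ranged from -0.045 to 0.030 (glutathione), -0.24 to -0.12 (glucuronide) and 0.036 to 0.19 (sulfate). In CR minus HFD they ranged from 0.059 to 0.17, -0.081 to 0.0031 and 0.019 to 0.21, and in CANA minus CR from -0.24 to -0.099, -0.19 to -0.061 and -0.061 to 0.045. The lowest sulfate medians against HFD were those without HFD array 1. Small sulfotransferase differences turned sign. Among serial numbers 9 to 14, Sult1b1 was -0.045 in CANA minus HFD and -0.026 in CR minus HFD, Sult1c2 -0.15 in CR minus HFD, and Sult1a1 -0.069 and Sult2a8 0.016 in CANA minus CR. Among numbers 1 to 8, Sult1d1 was -0.23 in CR minus HFD, against 0.58 among numbers 9 to 14. The test between the sets had an unadjusted p of 0.0112 and a limma adjusted p of 0.987. Sult1b1 was 0.036 in CANA minus CR without CR arrays 1 and 5. With 1 array left out, Sult1b1 in CANA minus HFD was -0.031 to 0.23, Sult1c2 and Sult1d1 in CR minus HFD -0.012 to 0.23 and -0.0485 to 0.24, and Sult1a1 and Sult2a8 in CANA minus CR -0.0705 to 0.21 and -0.080 to 0.0046. The cause was not tested. Dim probe sets limit what can be said of 13 sulfotransferases.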

Other observations

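Several probe sets of these families carry more than 1 gene symbol and stood outside the comparisons. The probe set shared by 8 Ugt1a genes, whose human counterparts include a canagliflozin-conjugating enzyme, read 6.71 to 6.86 in CANA, 6.74 to 6.99 in CR and 6.66 to 6.93 in HFD livers. A second, shared by 5 Ugt1a genes, read 7.04 to 7.32 in CANA, 6.83 to 7.43 in CR and 7.03 to 7.21 in HFD livers. The probe set of Gstz1, a zeta class enzyme of tyrosine breakdown, shared with Pomt2, read 11.46 to 11.63 in CANA, 11.62 to 11.95 in CR and 11.60 to 11.85 in HFD livers. Probe sets shared by Gsta1, Gsta2 and other symbols also lay above the limit of the tested range. The first read 5.60 to 6.53 in CANA, 5.56 to 6.29 in CR and 5.30 to 6.21 in HFD livers. The second read 6.31 to 7.14 in CANA, 6.065 to 7.03 in CR and 6.39 to 6.83 in HFD livers. The 3 groups overlapped on each of these probe sets, and no test was run on them.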
